A study of Mus musculus with 17 samples.

Results

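The neural progenitor genes described here are Sox1, Sox2, Sox3, Pax6, Irx3, Ncam1 and Nes. They were chosen by symbol, with earlier results of these data known, and are 7 of the 49671 genes in the count tables. All 7 passed the filter on low counts, which kept 17813 genes. RNA was measured in 17 libraries of R1 mouse embryonic stem cells with a FOXA2-Venus reporter, on the way to neural tube organoids, each library being either FOXA2-positive or FOXA2-negative. FOXA2 is a transcription factor of the floor plate, which lies at the ventral midline of the tube. In the RA groups retinoic acid was given for 18 hours. The BMP4 groups had the same 18 hours, then an untreated interval of 6 hours and BMP4 (a bone morphogenetic protein) for 8 hours. The LDN groups had the same sequence with the agent that the labels call LDN in place of BMP4. Retinoic acid is thus shared by all 6 groups. The labels give 18 hours alone for the RA groups, so in comparisons with RA treatment and time of collection cannot be told apart. Each group held 3 libraries except FOXA2-positive LDN, which held 2, numbered 2 and 3. All libraries came from 1 reporter line, and the labels do not say whether those of a group were separate cultures. The p-values thus measure the spread between these samples only, which may be technical.

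The early neural plate is marked by the SOXB1 transcription factors SOX1, SOX2 and SOX3, which share a DNA-binding HMG box and hold cells in the progenitor state. SOX2 is also part of the pluripotency network of embryonic stem cells, whereas SOX1 comes on when cells turn neural. PAX6 and IRX3 are homeodomain factors that pattern progenitors along the dorsal to ventral axis of the neural tube. NCAM1 is a cell adhesion molecule of neural cells and nestin, the product of Nes, is their intermediate filament. BMP signalling is known to hold back neural fate in early ectoderm and to favour surface ectoderm. In the embryo, Pax6 is kept out of the floor plate.

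The members of the SOXB1 trio are alike in sequence, and counts of alike genes can be split or lost when reads are assigned, so the stretch where they are closest is printed. It is the window of 120 coding bases, in the HMG box, where the 3 transcripts matched best without a gap, read 5′ to 3′ from the GENCODE transcripts of mm10. Capitals mark each base that differs from Sox2.
Sox2, transcript bases 135 to 254: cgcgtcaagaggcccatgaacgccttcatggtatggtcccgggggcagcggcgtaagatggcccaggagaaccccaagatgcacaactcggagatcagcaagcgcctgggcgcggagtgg
Sox1, transcript bases 1214 to 1333: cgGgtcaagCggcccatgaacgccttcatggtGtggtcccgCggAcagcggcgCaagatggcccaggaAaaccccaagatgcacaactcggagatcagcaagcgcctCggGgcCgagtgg
Sox3, transcript bases 427 to 546: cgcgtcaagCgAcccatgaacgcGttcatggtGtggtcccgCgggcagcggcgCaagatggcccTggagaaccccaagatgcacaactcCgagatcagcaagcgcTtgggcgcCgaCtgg
In this window Sox1 differed from Sox2 at 10 bases (91.7% identity) and Sox3 differed from Sox2 at 11 bases (90.8% identity). The longest run of identical bases was 38 between the Sox1 and Sox2 transcripts, 45 between Sox1 and Sox3, and 32 between Sox2 and Sox3, all in coding sequence. No word of 50 bases was shared by any pair. The read length is not given in the sources used here, so whether single reads could be assigned to more than 1 of the trio was not tested.

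For Sox2 and Pax6, which were lower after BMP4 than after LDN without any overlap of libraries, the 250 bases before the start that RefSeq annotates are printed, in the GRCm38.p6 build, which is also called mm10. Both lie on the plus strand. The RefSeq start of Sox2 is upstream of the GENCODE one: its window ends at 34649994 and the GENCODE gene begins at 34650405. Capitals mark every match, on either strand, to the letters GTCTG (bound by SMAD4), GGCGCC (bound by BMP SMADs), ACAATG (bound by SOX factors), ATGCAAAT (the octamer) or CCAAT. No match overlapped another in these windows.
Sox2, chr3:34649745-34649994: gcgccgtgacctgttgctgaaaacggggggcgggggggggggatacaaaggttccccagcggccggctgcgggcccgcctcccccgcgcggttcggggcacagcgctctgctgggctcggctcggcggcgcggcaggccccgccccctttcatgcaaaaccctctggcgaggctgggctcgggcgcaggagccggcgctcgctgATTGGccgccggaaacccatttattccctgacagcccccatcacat
Pax6, chr2:105668646-105668895: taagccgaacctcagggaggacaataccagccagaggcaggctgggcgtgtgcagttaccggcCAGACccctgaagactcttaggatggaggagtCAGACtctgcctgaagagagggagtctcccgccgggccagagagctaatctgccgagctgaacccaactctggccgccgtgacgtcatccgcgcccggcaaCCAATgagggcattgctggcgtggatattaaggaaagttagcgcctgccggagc
CCAAT was found once in each, at position -46 from the start of Sox2 and -54 from that of Pax6. It was also found once before Sox1, at position -237, in a window that the GENCODE model places mostly in the exon of Sox1 and that is not printed. CCAAT is in 33.8% of the 32851 RefSeq promoter windows of that length. GTCTG was found at 2 places before Pax6, at no place before Sox2 or Sox1, and is in 42.2% of all windows. A second RefSeq start of Pax6 has the window chr2:105682213-105682462, with GTCTG once, no CCAAT and a GC content of 47.6%. None of the 3 windows described first held GGCGCC (9.59% of all), ACAATG (10.7%) or the octamer (1.6%). The GC content was 71.2% for Sox1, 72% for Sox2 and 60.8% for the first start of Pax6, against a median of 52.4%. Such matches describe letters and were not tested as binding sites. The windows of Nes and Irx3, also in the RefSeq table, each held GTCTG once and no CCAAT. That of Irx3 (chr8:91801655-91801904, minus strand) lies wholly within the span of the gene in GENCODE.

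Counts over genes ranged from 8435845 to 10796136 per library (median 9785138), and 16139 to 18457 genes had a count. Levels are CPM, counts scaled to library size with the factors of the trimmed mean of M values (TMM), given for each library in the order of its number. Mitochondrial genes took 6.94% and 7.43% of counts in the RA libraries numbered 1, and at most 4.81% in the others. Summed over the series the members had between 2536 counts (Sox3) and 50742 (Ncam1). Per kilobase of exon, the level of Sox2 was highest (43 CPM per kb, mean of 17 libraries), followed by Ncam1 (35.3), Irx3 (17.8), Nes (9.9), Sox3 (7.43), Sox1 (3.5) and Pax6 (3.46). Length is that of all annotated exons merged, 16 for Pax6 and 26 for Ncam1 against 1 for each SOXB1 gene. Where transcripts use only part of them the level is understated, so this order is approximate. All 7 had counts in every library, so each gene of the label neural progenitor was detected throughout. Foxa2 itself had means over treatments of 30.3 CPM in the positive fraction and 0.979 CPM in the negative one. Of 8 floor plate markers 5 were measured, and all 5 estimates between the fractions, averaged over treatments, were positive (median log2 fold change 1.38). Foxa2, whose reporter defines the fractions, and Slit1 were called higher in the positive fraction, as were 3.12% of all genes. Of the remaining markers, Ferd3l was at 0 in every group and Shh in every group except FOXA2-positive LDN, where it had 11 counts. The libraries are bulk samples, so fewer cells of a type and less RNA per cell cannot be told apart.

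**Figure D1:**
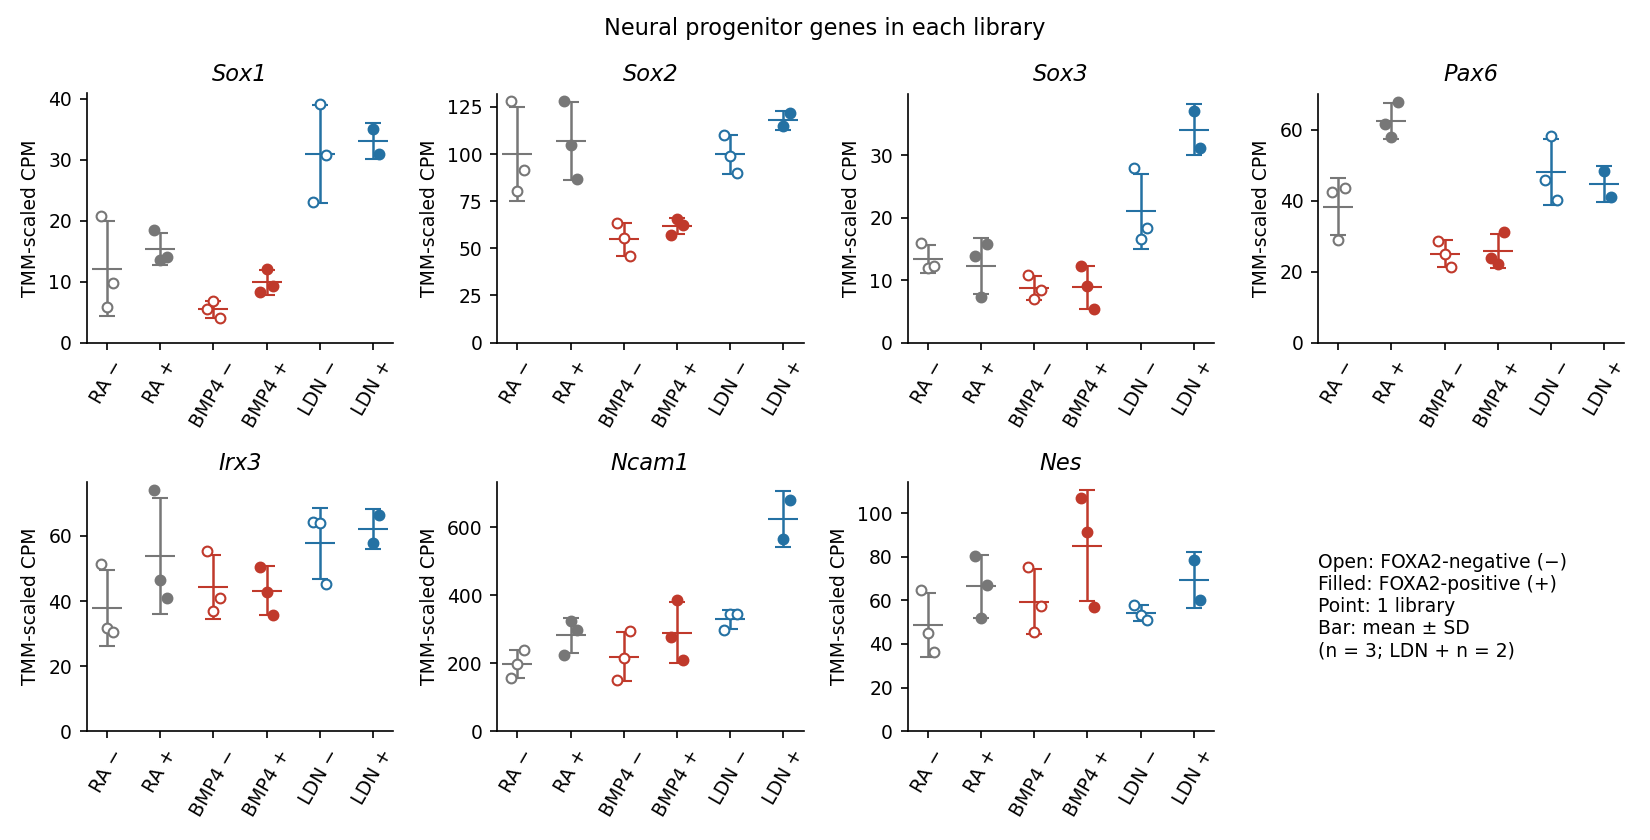
TMM-scaled CPM of each gene (vertical axis, starting at 0) in every library, by treatment and FOXA2 fraction; points are libraries and bars are mean ± SD (n = 3, FOXA2-positive LDN n = 2). The BMP4 libraries of Sox1, Sox2, Sox3 and Pax6 all lie below the LDN libraries of the same gene, while those of Ncam1, Nes and Irx3 overlap.

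Cells given BMP4 had less SOXB1, Pax6 and Ncam1 RNA than cells given LDN, after the same hours in culture. Averaged over both FOXA2 fractions, 5 of the 7 genes were lower: Sox1, Sox2, Sox3, Pax6 and Ncam1. Of all 17813 genes 0.309% were lower in that comparison and 0.786% changed in either direction. The difference was largest for Sox1, which was at 0.23 of its LDN level. Nes and Irx3 did not pass the test. The median log2 fold change of the 7 was -0.87, against 0.02 over all genes. These 11 libraries include no RA library, so treatment is not mixed with time here. No group is labelled with the same hours and neither agent, so lowering by BMP4 and raising by LDN cannot be told apart.

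Sox1, the SOXB1 factor most closely tied to neural commitment (ENSMUSG00000096014, mm10 chr8:12395295-12400126, plus strand, 1 exon), was lower after BMP4 than after LDN. It was at 5.58, 6.77 and 4.06 CPM in FOXA2-negative BMP4 libraries and at 8.22, 12.1 and 9.31 CPM in FOXA2-positive ones. After LDN it was at 23, 39.1 and 30.7 CPM in FOXA2-negative and 35.1 and 30.9 CPM in FOXA2-positive libraries. Every BMP4 library was under every LDN library, with a gap from 12.1 to 23 CPM between them. The log2 fold change was -2.12 ± 0.30 (SE, adjusted p = 0.000113, edgeR's quasi-likelihood test). It was -2.50 ± 0.41 in FOXA2-negative cells (adjusted p = 0.00253), where Sox1 was the only member called, and 0.073% of all genes were lower. In FOXA2-positive cells it was -1.74 ± 0.43 (adjusted p = 0.0937), and it passed with DESeq2 (adjusted p = 0.0174) and without a filter (adjusted p = 0.0211). The averaged call held with each of the 11 libraries left out in turn (highest adjusted p 0.00101). The exon of Sox1 is overlapped over 86 bases by the miRNA gene Gm25239 on the same strand. How reads there were counted is not given in the sources used here.

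Sox2, which serves both pluripotent and neural cells (ENSMUSG00000074637, mm10 chr3:34650405-34652461, plus strand, 1 exon), was lower after BMP4 by a smaller fold. The BMP4 libraries held 63.5, 55.3 and 45.7 CPM in FOXA2-negative and 57.1, 65.6 and 62.4 CPM in FOXA2-positive cells. The LDN libraries held 110, 98.9 and 89.9 CPM in FOXA2-negative and 115 and 122 CPM in FOXA2-positive cells. All 6 BMP4 libraries were below all 5 LDN libraries. The averaged log2 fold change was -0.90 ± 0.15 (adjusted p = 0.00079), with an estimate of -0.86 in FOXA2-negative cells (adjusted p = 0.0687) and -0.94 in FOXA2-positive cells (adjusted p = 0.0524). Neither passed the test within its fraction, and the averaged call held with each library left out. Sox2 did pass in both fractions with a block for the replicate number (-0.87, adjusted p = 0.036, and -1.02, adjusted p = 0.0125), with DESeq2 (adjusted p = 0.00708 and 0.00545) and without a filter on low counts (adjusted p = 0.0135 and 0.0118). That block matches numbers between treatments, and same-numbered BMP4 and LDN libraries of a fraction did not deviate together (correlations from -0.127 to -0.002).

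Sox3, the X-linked SOXB1 gene (ENSMUSG00000045179, mm10 chrX:60891366-60893430, minus strand, 1 exon), was the least abundant by count. It stood at 10.8, 6.99 and 8.4 CPM in FOXA2-negative BMP4 libraries and at 12.2, 9.01 and 5.33 CPM in FOXA2-positive ones. In LDN libraries it stood at 27.9, 16.6 and 18.4 CPM in FOXA2-negative and at 37 and 31.2 CPM in FOXA2-positive cells. The highest levels of Sox3 in the series were thus those of the FOXA2-positive LDN libraries, and no BMP4 library reached any LDN library. The averaged log2 fold change was -1.60 ± 0.29 (adjusted p = 0.00279), and this call held with each library left out. In FOXA2-positive cells the log2 fold change of -1.95 ± 0.42 passed the test (adjusted p = 0.0316). Sox3 was 1 of 2 members called there, where 0.0842% of all genes were lower. That call was lost without any 1 of 4 of the 5 libraries: BMP4 library 2 (adjusted p = 0.11) or 3 (0.192), or LDN library 2 (0.23) or 3 (0.133). In FOXA2-negative cells the estimate was -1.26 (95% interval -2.06 to -0.47, adjusted p = 0.347).

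Pax6, the homeodomain factor of eye and neural tube (ENSMUSG00000027168, mm10 chr2:105668900-105697364, plus strand), was lower after BMP4 by a fold near that of Sox2. Its BMP4 libraries were at 28.7, 24.9 and 21.2 CPM in FOXA2-negative and 23.8, 22.1 and 31.1 CPM in FOXA2-positive cells. Its LDN libraries were at 45.9, 58.3 and 40.2 CPM in FOXA2-negative and 48.2 and 40.9 CPM in FOXA2-positive cells. The treatments did not overlap. The averaged log2 fold change was -0.87 ± 0.18 (adjusted p = 0.00999), and the call was lost without FOXA2-positive LDN library 2 (-0.81, adjusted p = 0.071). With that library out, FOXA2-positive LDN rests on 1 library, which is assumed to vary like the others. Within fractions the estimates were -0.95 (FOXA2-negative, adjusted p = 0.137, or 0.0144 with DESeq2) and -0.80 (FOXA2-positive, adjusted p = 0.358).

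With Sox1, Sox2, Sox3 and Pax6, 4 of the 7 members had all BMP4 libraries below all LDN libraries, in a comparison where 0.46% of all genes did so. Within FOXA2-negative cells 5 members did (background 5.93%) and within FOXA2-positive cells, with 3 against 2 libraries, 6 members did (background 10.8%).

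Ncam1, the neural cell adhesion molecule (ENSMUSG00000039542, mm10 chr9:49502136-49798925, minus strand), was highest in FOXA2-positive LDN cells, as Sox3 was. Those 2 libraries held 565 and 681 CPM. FOXA2-negative LDN libraries held 297, 344 and 345 CPM. BMP4 libraries held 149, 216 and 294 CPM in FOXA2-negative and 277, 386 and 208 CPM in FOXA2-positive cells, so that 1 BMP4 library lay above all FOXA2-negative LDN libraries. The averaged log2 fold change was -0.84 ± 0.17 (adjusted p = 0.00934), lost without FOXA2-positive LDN library 3 (-0.76, adjusted p = 0.11). In FOXA2-positive cells it was -1.10 ± 0.24 (adjusted p = 0.0497), and the call was lost without BMP4 library 1 (adjusted p = 0.215) or 3 (0.201) or LDN library 2 (0.136) or 3 (0.537). In FOXA2-negative cells it was -0.58 (95% interval -1.04 to -0.12, adjusted p = 0.621). The difference between the fractions in this effect was -0.52 (adjusted p = 0.875) and did not pass the test. The exons of Ncam1 overlap those of the antisense gene Gm11149 over 417 bases, and the strand setting of the counting is not given in the sources used here.

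Irx3, a homeodomain factor of intermediate progenitors (ENSMUSG00000031734, mm10 chr8:91798525-91802067, minus strand), stood at 55.5, 36.8 and 41 CPM in FOXA2-negative and 50.6, 42.9 and 35.6 CPM in FOXA2-positive BMP4 libraries. In LDN libraries it stood at 64.4, 63.9 and 45.2 CPM and at 57.8 and 66.6 CPM. The averaged estimate was -0.46 ± 0.19 (95% interval -0.85 to -0.06, adjusted p = 0.454), which did not pass, and the treatments overlapped. Its exons share 124 bases with the antisense gene Irx3os, which held 175 counts in all libraries together against 8124 for Irx3.

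Nes, the filament gene, was the only member not lower in the mean after BMP4 (ENSMUSG00000004891, mm10 chr3:87971078-87980451, plus strand). Its BMP4 libraries were at 75.2, 45.7 and 57.2 CPM in FOXA2-negative and 107, 91.5 and 57.1 CPM in FOXA2-positive cells. Its LDN libraries were at 58, 53.4 and 51.1 CPM and at 78.6 and 60.2 CPM. The averaged estimate was 0.21 ± 0.19 (95% interval -0.17 to 0.60, adjusted p = 0.81), so that its interval does not reach the estimates of the SOXB1 genes. Libraries of the treatments overlapped in both fractions.

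**Figure D2:**
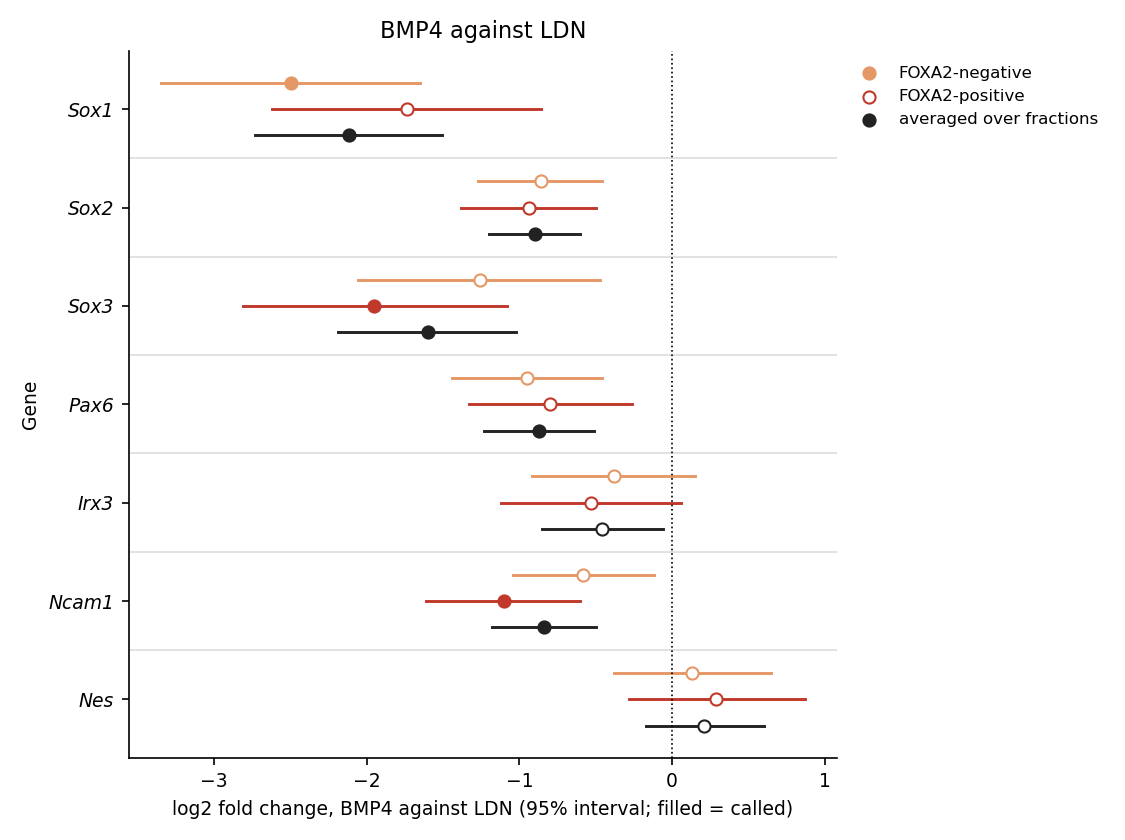
Log2 fold change of each gene for BMP4 against LDN (horizontal axis) with its 95% interval, in FOXA2-negative cells, FOXA2-positive cells and averaged over both; filled points have an adjusted p under 0.05. Sox1, Sox2, Sox3, Pax6 and Ncam1 have filled averaged points between -2.12 and -0.84, and those of Irx3 (-0.46) and Nes (0.21) are open.

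No member differed between the FOXA2 fractions in its response to BMP4 against LDN by the test of that difference, in which 0.0337% of all genes were called. The estimates over 0.5 in size were 0.76 for Sox1 (adjusted p = 0.926), -0.68 for Sox3 (0.937) and that of Ncam1. In each the 95% interval covered 0, from -0.45 to 1.97 for Sox1 and from -1.85 to 0.49 for Sox3. The calls of Sox1 in one fraction and of Sox3 and Ncam1 in the other are therefore not shown to differ.

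Next to Sox1, the noncoding gene Sox1ot, in whose span Sox1 lies on the same strand, was lower after BMP4 as well. It had a mean of 0.754 CPM in BMP4 and 9.3 CPM in LDN groups, with all BMP4 libraries below all LDN libraries (-3.72 ± 0.91, adjusted p = 0.0475). Its counts were few, 46 in the BMP4 and 414 in the LDN libraries. Sox2ot, which spans Sox2, had an estimate of -0.66 (adjusted p = 0.816). Their exons share no base with those of Sox1 or Sox2. Pax6os1 had 7 counts in all and was not tested.

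Of 20 other pan-neural genes, 19 were measured, and 2 were lower after BMP4, averaged over fractions: Sox21, a SOXB2 factor (13.2 to 1.12 CPM from LDN to BMP4, -3.29 ± 0.77, adjusted p = 0.0365), and Rfx4, a factor of neural tube progenitors (17.9 to 2.3 CPM, -2.93 ± 0.66, adjusted p = 0.0352). The median of the 19 was -0.56, against 0.02 over all genes, and 6 of them had a positive estimate. Of all genes 0.309% were called lower in this comparison. Genes that did not pass include the RNA-binding protein gene Msi1, at 65.5 and 81 CPM in FOXA2-negative and FOXA2-positive LDN groups and 59 and 69 CPM in the BMP4 groups. They also include Hes5, a Notch target, at 38.9 and 63.3 CPM in the LDN groups and 12.1 and 22.7 CPM in the BMP4 groups.

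Patterning factors of the neural tube went the other way where they were called. Of 17, 12 were measured and 3 were higher after BMP4, all of them dorsal genes: Pax3 (2.36 ± 0.36, adjusted p = 0.000343), Msx1 (2.58 ± 0.25, adjusted p = 1.91e-05) and Msx2. In this averaged comparison 0.786% of all genes were called in either direction. Msx2 was at a mean of 26.3 CPM in BMP4 groups and 3.56 CPM in FOXA2-negative LDN, and had no count in FOXA2-positive LDN. No ventral progenitor factor was called. Nkx2-9 had group means from 12.7 to 35.7 CPM and Nkx6-2 from 0.659 to 4.42 CPM, whereas Nkx6-1 was at most at 1.8 CPM, Nkx2-2 at most at 0.302 CPM, and Olig2 was at 0 in 5 groups. Of the other PAX genes 6 of 8 were measured, and Pax3 was the only one called. Among 12 measured SOX genes outside SOXB1, Sox4, a factor of the SOXC group, was lower after BMP4 by 0.67 ± 0.13 (adjusted p = 0.00773). Sox21 was lower as given. None of the 5 other IRX genes passed (median -1.22, all 5 estimates negative). Among 9 measured partners of NCAM1 and genes of its polysialic acid, only Cdh1, the cadherin of epithelia, changed, and it was lower after BMP4 (-0.58 ± 0.14, adjusted p = 0.045). The median of these 9 was -0.14.

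Some surface ectoderm markers were higher after BMP4. Averaged over fractions 5 of 11 were called higher than after LDN: Tfap2a (3.33), Gata3 (2.53), Dlx5 (2.45), Krt19 (2.07) and Dlx3 (1.27), with adjusted p from 2.35e-06 to 0.043. Of all genes 0.786% were called in either direction in that comparison, and 0.309% were called lower. None was called lower, and 4 of the 11 estimates were negative (Krt8, Epcam, Grhl2 and Grhl3). The summed level of the 11 ran from 699 to 807 CPM in FOXA2-positive BMP4 and from 354 to 426 CPM in FOXA2-positive LDN. In FOXA2-negative cells it ran from 773 to 793 CPM after BMP4 and from 745 to 901 CPM after LDN, ranges that overlap. There 3 of the 11 were called higher and 6 estimates were negative (median -0.14). Krt8 went from a mean of 160 CPM after LDN to 69.1 CPM after BMP4 (adjusted p = 0.0535) and Krt18 from 243 to 166 CPM (adjusted p = 0.36). In FOXA2-positive cells 5 were called higher and 8 estimates were positive (median 1.75). The numbers of all genes called within each fraction, in either direction, are given in the last section. None of the 11 was at 0 in any group. Of 12 pluripotent markers none changed (median 0.30), and their sums overlapped between BMP4 and LDN in the FOXA2-negative groups (681 to 1070 and 786 to 1160 CPM) and in the FOXA2-positive groups (345 to 457 and 369 to 386 CPM). Neuron markers had 6 of 9 measured and none changed (median -0.48). The part of other cell types in the lower SOXB1, Pax6 and Ncam1 levels was not tested.

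**Figure D3:**
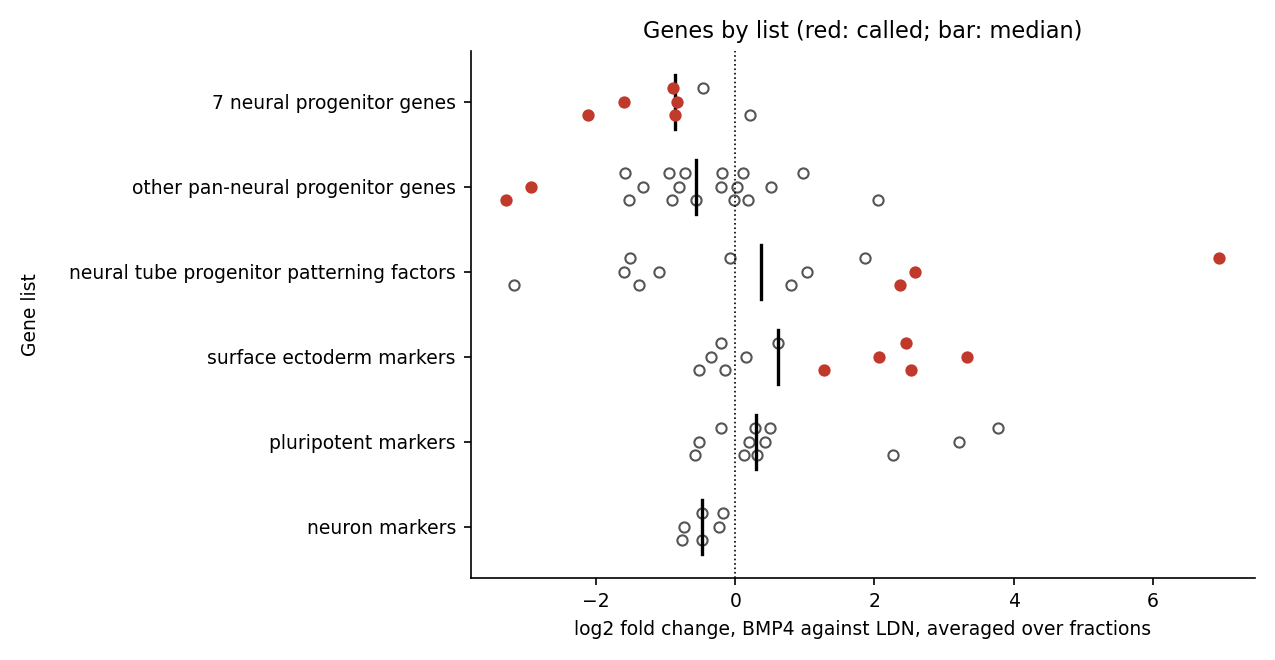
Averaged log2 fold change of BMP4 against LDN (horizontal axis) for each measured gene of 6 lists; points are genes, red where the adjusted p is under 0.05, and bars are list medians. The 7 neural progenitor genes have a median of -0.87 and the surface ectoderm markers 0.61; the point farthest right is Msx2, whose place depends on the fit since FOXA2-positive LDN had no count of it.

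FOXA2-positive cells had more Ncam1 than FOXA2-negative cells, and no SOXB1 gene passed the test between the fractions. Averaged over the 3 treatments, Ncam1 was the only member called, with group means averaging 398 CPM in the positive and 248 CPM in the negative fraction (0.61 ± 0.13, adjusted p = 0.00456). Of all genes, 3.12% were higher and 7.62% changed. Its call held with each of the 17 libraries left out in turn (highest adjusted p 0.0314). All 7 estimates were positive, with a median of 0.21 against -0.03 over all genes, but 6 did not pass. Nes had the next lowest adjusted p (0.44 ± 0.15, adjusted p = 0.0724). Nes passed with a block for the replicate number within treatment (0.46, adjusted p = 0.029), and without both RA libraries numbered 1 it passed as well (0.48, adjusted p = 0.0449), as it did without a filter (0.44, adjusted p = 0.0268).

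Within a single treatment none of the 7 was called between the fractions, where 1.19% of all genes were called in RA, 0.921% in BMP4 and 0.994% in LDN. At an unadjusted p under 0.05 there were 2 of 7 in RA (10.7% of all genes), 2 in BMP4 (10.8%) and 1 in LDN (11.2%). Under DESeq2, 1 member was called in these 3 comparisons, Ncam1 in LDN (0.94, adjusted p = 0.0214), which was also called without a filter (0.92, adjusted p = 0.00022). In the main edgeR fit its unadjusted p was 0.000974, which is above that adjusted p. The fit without a filter called more genes in every comparison for which the last section gives its count. In RA, Ncam1 stood at 155, 198 and 238 CPM in FOXA2-negative and 224, 324 and 297 CPM in FOXA2-positive libraries (0.52, 95% interval 0.05 to 0.98, adjusted p = 0.39). In BMP4 its estimate was 0.40 (adjusted p = 0.518) and in LDN 0.92 ± 0.24 (adjusted p = 0.0764), with both FOXA2-positive LDN libraries above the 3 FOXA2-negative ones. Besides Ncam1, Sox2, Sox3 and Nes had non-overlapping LDN fractions, 4 of 7 against 13.1% of all genes.

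Pax6 differed most between the fractions in RA, without passing the test. It stood at 42.4, 29 and 43.5 CPM in FOXA2-negative and 61.6, 57.8 and 67.8 CPM in FOXA2-positive RA libraries. Every FOXA2-positive RA library was above every FOXA2-negative one, as for 7.25% of all genes (0.70 ± 0.24, 95% interval 0.22 to 1.19, adjusted p = 0.203). In BMP4 and LDN its estimates were 0.04 (95% interval -0.45 to 0.53) and -0.11 (-0.65 to 0.43). The difference of the fraction effect was -0.66 ± 0.33 between BMP4 and RA (adjusted p = 1) and -0.82 ± 0.35 between LDN and RA (unadjusted p = 0.03, adjusted p = 0.86, where 0.00561% of genes were called). Both share the RA libraries. Pax6 is thus not shown to respond to the FOXA2 state differently by treatment.

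After BMP4, Sox1 was higher in all 3 FOXA2-positive libraries (8.22 to 12.1 CPM) than in the FOXA2-negative ones (4.06 to 6.77 CPM), as for 7.51% of all genes, with an estimate of 0.85 ± 0.40 (adjusted p = 0.447). In RA its estimate was 0.34 (95% interval -0.46 to 1.15) from 20.8, 5.78 and 9.77 CPM in FOXA2-negative and 18.4, 13.6 and 14.1 CPM in FOXA2-positive libraries. With single RA libraries left out that estimate ran from 0.01 to 0.98. In LDN it was 0.10 (-0.78 to 0.98). Sox2 stayed within 0.09 and 0.24 in the 3 treatments, and its averaged interval ran from -0.07 to 0.41. In RA, Sox2 was at 128, 80.3 and 91.8 CPM in FOXA2-negative and 128, 105 and 86.6 CPM in FOXA2-positive libraries. Sox3 had estimates of -0.12 in RA, 0.02 in BMP4 and 0.70 in LDN (adjusted p = 0.524), with 16, 12 and 12.2 CPM in FOXA2-negative and 13.9, 7.32 and 15.8 CPM in FOXA2-positive RA libraries. The sign of small estimates such as those of Sox3 in RA and BMP4 turned when single libraries were left out.

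Irx3 had 51.4, 31.8 and 30.4 CPM in FOXA2-negative and 74.2, 46.5 and 40.8 CPM in FOXA2-positive RA libraries (0.51, 95% interval -0.03 to 1.04). Its estimates were -0.04 in BMP4 and 0.10 in LDN. Nes had 64.8, 45 and 36.1 CPM in FOXA2-negative and 80.3, 51.7 and 67.2 CPM in FOXA2-positive RA libraries (0.45), and estimates of 0.52 in BMP4 and 0.36 in LDN. In both genes the RA library numbered 1 was the highest of its group in each fraction. RA was also the treatment in which libraries of the same number deviated together. Within each of the 3 RA pairs of one number, Irx3, Nes, Pax6 and Ncam1 were higher in the FOXA2-positive library. The SOXB1 genes were not higher in every pair. The share of all genes higher in all 3 pairs was not counted, so the agreement of the pairs cannot be judged. None of the 4 passed with the pairs as a block, at 0.5 for Irx3 (adjusted p = 0.323), 0.47 for Nes (0.376), 0.72 for Pax6 (0.136) and 0.52 for Ncam1 (0.344).

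Sox1 and Irx3 lie on chromosome 8, whose 407 genes with at least 20 CPM were shifted towards lower values in FOXA2-positive cells. Their median was -0.31 in RA, -0.30 in BMP4, -0.27 in LDN and -0.29 averaged, with 78.9% to 89.4% of these genes lower, while the medians of the other members' chromosomes lay between -0.05 and 0.10. Relative to its chromosome's median, the averaged estimate of Sox1 was 0.72 in place of 0.43 and that of Irx3 was 0.48 in place of 0.19. The part of this shift in their values was not tested. In BMP4 against LDN the chromosome 8 median was at most 0.07 below 0, so that Sox1 was at -2.09 relative to it.

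**Figure D4:**
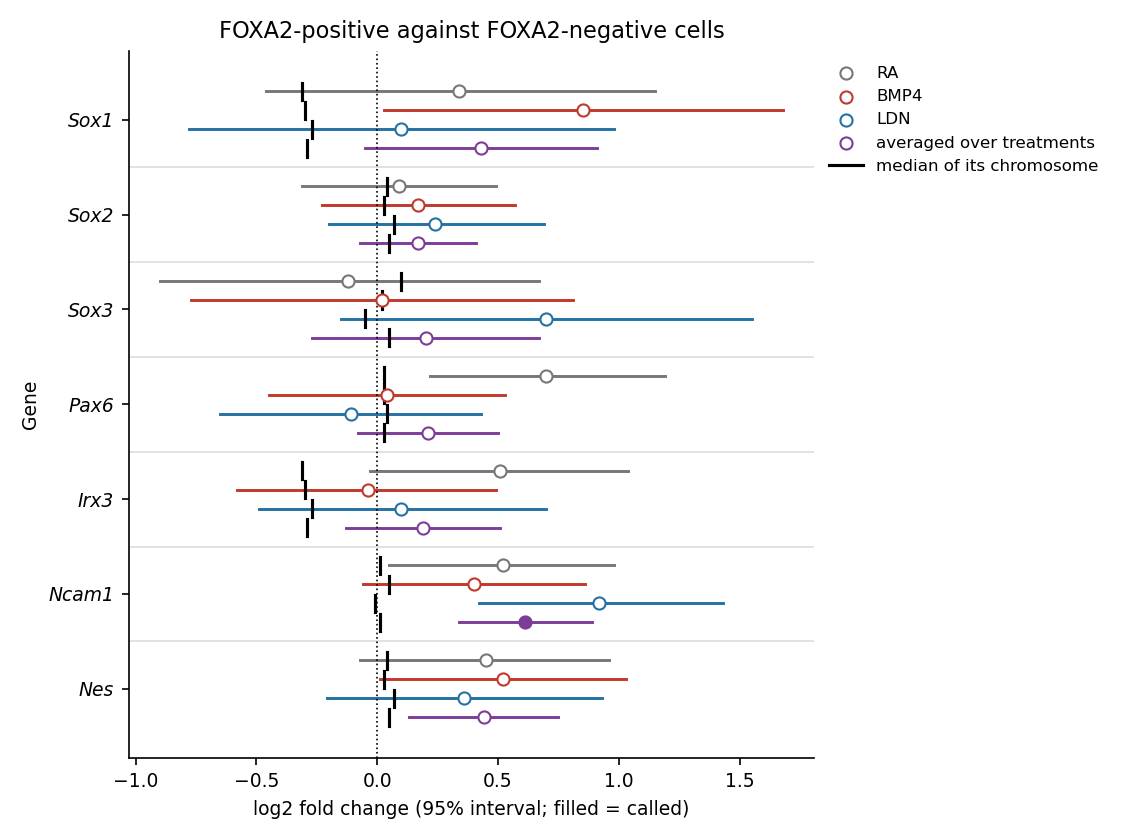
Log2 fold change between the fractions, FOXA2-positive over FOXA2-negative (horizontal axis), with 95% interval, by treatment and averaged; filled points have an adjusted p under 0.05 and black ticks are the median of the gene's chromosome. The averaged point of Ncam1 (0.61) is the filled one, and the ticks of Sox1 and Irx3 lie near -0.3.

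Other cell types' markers moved with the FOXA2 fraction. Averaged over treatments, 7.62% of all genes were called between the fractions, and 3.12% were called higher in FOXA2-positive cells. Of 12 pluripotent markers 11 were lower in FOXA2-positive cells, averaged over treatments (median -2.38), and their sum ran from 316 to 457 CPM there against 681 to 1240 CPM in FOXA2-negative cells. In FOXA2-positive groups Tdgf1 was at 0 in RA and LDN and Nanog in LDN. Of 11 surface ectoderm markers 5 were lower and Krt19 was higher. Of 6 endoderm markers 3 were higher, with sums of 52.3 to 109 CPM against 5.16 to 34.2 CPM. Of 6 measured neuron markers 3 were lower and 3 had positive estimates (median -0.34). The sums of all 9 neuron markers were 46.8 to 71.4 CPM against 78.1 to 135 CPM. The part of these in the Ncam1 difference was not tested.

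Related genes were compared between the fractions in the same way, against the same shares of all genes. Of 19 other pan-neural genes 3 were higher in FOXA2-positive cells, averaged over treatments (median 0.43): Cdh2, the neural cadherin (1.18 ± 0.22, adjusted p = 0.000893), the RNA-binding protein gene Msi2 (0.46 ± 0.11, adjusted p = 0.00592) and Prom1, the membrane protein gene prominin (0.86 ± 0.21, adjusted p = 0.0112). Cdh1 was lower (-0.60 ± 0.11, adjusted p = 0.00116). Of 9 measured partners of NCAM1 and genes of its polysialic acid, Cdh2 and St8sia2, a sialyltransferase that makes polysialic acid, were higher and Cdh1 lower. St8sia2 had no count in FOXA2-negative RA, so no fold is given. Its group means were 3.72 CPM in FOXA2-positive RA, 2.72 against 0.504 CPM in BMP4 and 2.8 CPM in both LDN fractions. The SOXC genes Sox4 (1.33 ± 0.11, 260 against 103 CPM) and Sox11 (0.78 ± 0.15, 141 against 81.5 CPM) were higher, as were Sox6 and the endoderm gene Sox17, and Sox15 was lower. In the IRX family Irx1 was higher (2.93 ± 0.74) and Irx5 lower (-1.58 ± 0.45), beside Irx3, which did not pass. Of 12 measured patterning factors 3 were higher (Pax3, Msx1 and Gbx2) and 3 lower (Msx2, Irx5 and Otx2), where 7.62% of all genes changed. Otx2 had no count in any FOXA2-positive group. Pax3 was the only gene called of the 6 other PAX genes measured.

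Against RA, where treatment and time cannot be told apart, 2 members were called in 1 comparison each. Pax6 fell from 62.4 ± 5.05 CPM (SD, n = 3) in FOXA2-positive RA to 25.7 ± 4.79 CPM (n = 3) in FOXA2-positive BMP4 cells. No library overlapped, as for 6.14% of genes (-1.28 ± 0.24, adjusted p = 0.023), and 0.0112% of genes were called lower there. The call was lost in 5 of 6 cases when a library was left out (adjusted p up to 0.25), and without both RA libraries numbered 1 (-1.29, adjusted p = 0.0661). Ncam1 rose from 282 ± 51.7 CPM (n = 3) in FOXA2-positive RA to 623 ± 82.1 CPM (n = 2) in FOXA2-positive LDN cells (1.15 ± 0.24, adjusted p = 0.0499), where 0.073% of genes were called higher. Its libraries did not overlap, as for 11.7% of genes. Leaving out any 1 of the 5 libraries ended the call (adjusted p from 0.0632 to 0.493) as did leaving out both RA libraries numbered 1 (1.01, adjusted p = 0.15).

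In FOXA2-negative cells no member was called against RA, where 0.0786% of genes were called for BMP4 and 0.0393% for LDN. Under DESeq2, Sox2 was called for BMP4 (-0.86, adjusted p = 0.0109). Without a filter Sox2 was called for BMP4 (adjusted p = 0.0207) and Ncam1 for LDN (adjusted p = 0.00884). With edgeR, 3 of 7 had an unadjusted p under 0.05 in each, as did 7.36% of all genes for BMP4 and 7.5% for LDN. For BMP4 the estimates were -0.87 for Sox2 (54.8 ± 8.90 against 100 ± 25.1 CPM, adjusted p = 0.104), -1.15 for Sox1 (0.586), and -0.62 for both Pax6 (0.645) and Sox3 (0.718). For LDN they were 1.35 for Sox1 (30.9 ± 8.05 against 12.1 ± 7.78 CPM, adjusted p = 0.46), 0.74 for Ncam1 (0.52), 0.65 for Sox3 (0.673) and 0.61 for Irx3 (0.647). Without FOXA2-negative RA library 1, the estimate of Sox1 was -0.5 for BMP4 (adjusted p = 0.902) and 1.99 for LDN (adjusted p = 0.0975). In FOXA2-positive cells the further estimates over 0.5 in size were -0.79 for Sox2 (0.234) and -0.63 for Sox1 (0.829) with BMP4, and 1.47 for Sox3 (0.166) and 1.10 for Sox1 (0.395) with LDN. DESeq2 called that of Sox2 (-0.78, adjusted p = 0.044) and that of Sox3 (1.49, adjusted p = 0.0426). The 4 comparisons share RA libraries in pairs. Of 28 estimates against RA, 14 were under 0.5 in size.

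Ordered by group mean, Sox1 ran from FOXA2-negative BMP4 (5.47 ± 1.36 CPM) through FOXA2-positive BMP4 (9.89 ± 2.03), both RA groups and FOXA2-negative LDN to FOXA2-positive LDN (33 ± 2.96 CPM, n = 2). Libraries of neighbouring groups were apart only between the BMP4 groups and between FOXA2-positive RA and FOXA2-negative LDN. Sox2 had only 1 such gap, between FOXA2-positive BMP4 (61.7 ± 4.30 CPM) and FOXA2-negative LDN (99.8 ± 10.3 CPM). RA and LDN groups overlapped for Sox2. For Sox3 the gaps lay above FOXA2-negative RA (13.4 ± 2.27 CPM) and above FOXA2-negative LDN (21 ± 6.05 CPM), and for Ncam1 below FOXA2-positive LDN alone. Neighbouring groups of Pax6, Nes and Irx3 overlapped throughout. Pax6 was highest in FOXA2-positive RA and Nes in FOXA2-positive BMP4 (85.1 ± 25.4 CPM), the other 5 in FOXA2-positive LDN.

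**Figure D5:**
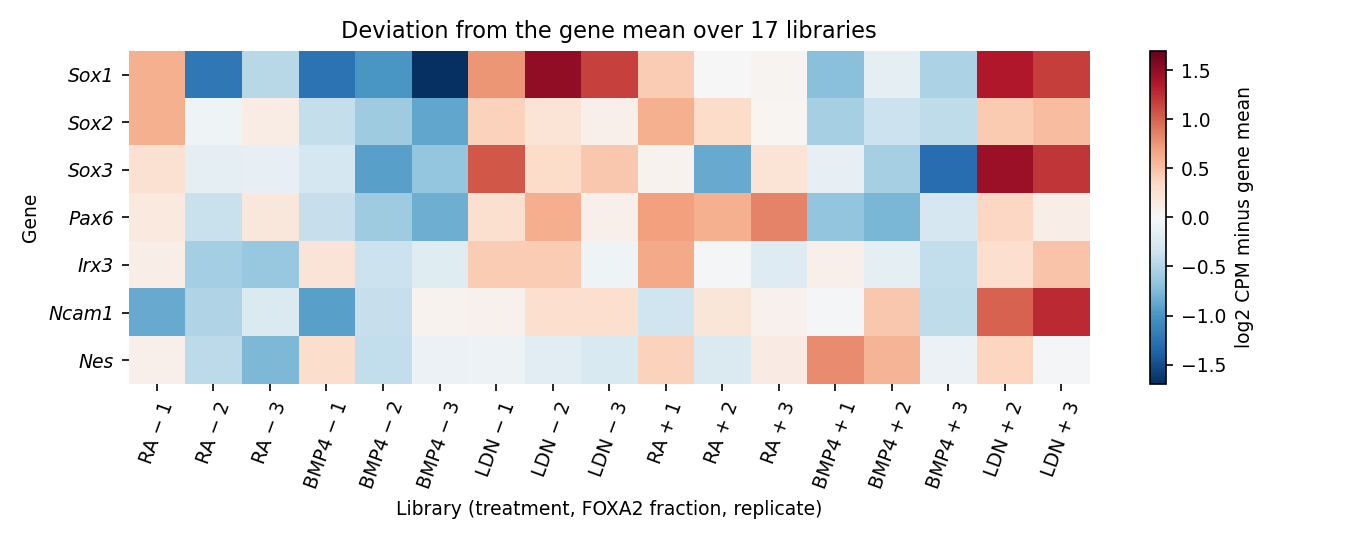
Deviation of log2 CPM from each gene's mean over the 17 libraries (colour scale) for the 7 genes (rows) in each library (columns). Sox1, Sox2, Sox3 and Pax6 are below their means in all 6 BMP4 libraries, and Sox1, Sox3 and Ncam1 are farthest above theirs in LDN libraries.

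Across the 17 libraries the members fell into no single pattern. As a description, Pearson's r of log2 CPM was 0.82 for Sox2 and Pax6, 0.80 for Sox1 and Sox2, and 0.73 for Sox1 and Sox3. Nes correlated with Sox1, Sox2, Sox3, Pax6 and Ncam1 between -0.15 and 0.15. With group means removed, r was 0.69 for Sox1 and Sox2 and 0.06 for Sox1 and Sox3, so that the latter pair was alike in group levels and not in single libraries. Within groups Nes went with Sox3 (0.83) and Irx3 (0.75), and Ncam1 against Sox2 (-0.57). These libraries share groups, depth and scaling, and no p is given.

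Among genes that averaged 20 CPM or more, those whose levels followed Sox1 most closely were Slc2a1, a glucose transporter gene (r = 0.879), Spsb4 (0.833) and Rcor2 (0.815). For Sox2 they were Tenm3 (0.853), Zfp703 (0.828) and Pax6 (0.815), and for Pax6 they were Sox2, Meis2 (0.789) and Creb3l2 (0.766). For Sox3 they were Sall2 (0.782), Rcor2 (0.781) and Slc2a1 (0.771). Ncam1 was nearest to Sp8 (0.892), Notch2, a Notch receptor gene (0.889), and Map1b (0.888). Nes was nearest to Stard7 (0.82), Ssbp3 (0.782) and Sall1 (0.775), and Irx3 to Nbea (0.735), Gzf1 (0.733) and Polr3d (0.717). All values are over 17 libraries, which hold 6 groups.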

How the data were processed

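RNA was measured with SMART-Seq v2, a full-length cDNA method, per the labels' protocols. The authors deposited raw read counts per Ensembl gene for each library; per the submitters' processing notes UMI-tools 1.0.0, cutadapt 1.18, HTSeq 0.11.2 and DESeq2 1.26.0 were used with mm10. Duplicates were removed by molecular identifier, per the deposited tables' names. Not given in the sources used here are the aligner, the annotation release and the strand setting. Lines that name no gene (5 per table, with 49.32% to 54.41% of tallied reads) were left out of library sizes and every fit.

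Groups came from the titles. The fits used edgeR 4.0.16 in R 4.3.3: filterByExpr (minimum count 10, minimum total 15), TMM scaling (factors 0.943 to 1.05) and 1 robust quasi-likelihood model of the 6 groups (11 residual degrees of freedom, common biological coefficient of variation 0.632). From it came 14 comparisons, each adjusted by Benjamini-Hochberg over 17813 genes and called under 0.05. All adjusted p-values are from this test unless DESeq2 is named. Averages weight groups equally. SE is the fitted log2 change over the root of its F statistic. The procedure was also run on simulated counts with less spread than this common coefficient and with changes in BMP4 libraries alone. That run checks the code and does not measure the power of the test in these data.

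The members and gene lists were chosen with earlier results of these data known. All 7 members are described; list genes are named where called or among the most abundant per length, the floor plate and ventral genes Shh, Ferd3l, Nkx2-9, Nkx6-2, Nkx6-1, Nkx2-2 and Olig2 were named after their values were seen, and genes of like pattern are the 3 with the highest r (log2 CPM, prior count 2, mean of at least 20 CPM, no predicted genes). Estimates against RA and differences of effects are given from 0.5 in size. Symbols and coordinates are from GENCODE M21 (GRCm38), with 49412 genes matched. Promoters are from RefSeq. Proteins are not used here.

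Pairing by replicate number was checked by the correlation of deviations from group means over 6669 genes. Same-numbered FOXA2-positive and FOXA2-negative libraries correlated at 0.587, 0.238 and 0.277 in RA, where the numbers were taken to pair them, and between 0.051 and 0.079 in BMP4 and LDN. For comparisons between treatments the block matched numbers across all groups. There, same-numbered BMP4 and LDN libraries of a fraction correlated between -0.127 and -0.002. Alternatives were DESeq2 1.42.0, RLE scaling, no filter, the replicate block, each library left out, and both RA libraries numbered 1 left out.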

Additional observations from a re-analysis of the deposited data

How the results depend on the processing

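Of the comparisons, 5 of 7 members kept their averaged calls in BMP4 against LDN under DESeq2, RLE scaling, no filter and the replicate block (Sox1, Sox2, Sox3, Pax6 and Ncam1); left-out libraries ended those of Pax6 and Ncam1 once each. Depth limits Sox1 and Sox3 most, at 2811 and 2536 counts in all. Where an alternative moved a count, the cause was not tested.

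DESeq2 and the fit without a filter called more genes than the 212 (RA), 164 (BMP4) and 177 (LDN) of FOXA2-positive against FOXA2-negative cells, at 486, 476 and 545 for DESeq2 and 466, 411 and 460 without a filter. For BMP4 against LDN, 35 (FOXA2-negative), 57 (FOXA2-positive) and 140 (averaged) became 137, 189 and 317 with DESeq2 and 141, 196 and 318 without a filter. For BMP4 against RA, 14 in each fraction became 74 and 55, or 94 and 100. For LDN against RA, 7 and 37 became 45 and 230, or 83 and 294. The differences of effects, with 6 (BMP4-LDN between fractions), 1 (fraction effect, BMP4 and RA) and 1 (LDN and RA), became 38, 16 and 3, or 54, 31 and 31.

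The replicate block called 362 genes in RA, 282 in BMP4, 2 in the difference between BMP4 and RA, and 6 in FOXA2-negative BMP4 against RA. It turned the estimates of Sox3 in BMP4 (0.02 to -0.03) and Sox1 in LDN (0.10 to -0.07), both between fractions, and added Sox2 for BMP4 against LDN in FOXA2-negative (-0.87, adjusted p = 0.036) and FOXA2-positive cells (-1.02, adjusted p = 0.0125), beside Nes. It changed no other member's call. Without both RA libraries numbered 1, RA held 109 genes and BMP4 against RA 9 in each fraction. DESeq2 gained 8 member calls, no filter 7 and RLE scaling 1 (Sox2, FOXA2-positive BMP4 against LDN, -0.95, adjusted p = 0.0481).

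With single libraries left out, counts ran from 105 to 219 in RA, 61 to 165 in BMP4, 66 to 163 in LDN and 881 to 1343 averaged (from 1357). They ran from 78 to 122 for averaged BMP4 against LDN, 32 to 55 in FOXA2-positive cells, 5 to 9 and 7 to 15 for BMP4 against RA, 4 to 11 and 10 to 35 for LDN against RA, and 3 to 7, 1 to 2 and 1 to 2 for the differences. Estimates that turned were those of Nes in FOXA2-negative BMP4 against LDN (-0.07 to 0.29) and Sox1 in the difference between BMP4 and RA (-0.14 to 0.85). Between fractions they were Irx3 (-0.18 to 0.14), Pax6 (-0.12 to 0.15) and Sox3 (-0.28 to 0.28) in BMP4, Irx3 (-0.04 to 0.22), Pax6 (-0.22 to 0.05) and Sox1 (-0.08 to 0.30) in LDN, and Sox2 (-0.06 to 0.31) and Sox3 (-0.33 to 0.15) in RA.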
